A study of Mus musculus with 4 samples.

Results

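Of 44672 CTCF peaks that were reproducible between 2 pools of mouse left cerebral cortex, 891 (1.99%, 95% interval 1.87% to 2.13%) had their summit inside protein-coding sequence and more than 1000 bp from every start of a protein-coding or long non-coding transcript. These coding-exon peaks were selected by position alone: the summit had to fall in a coding (CDS) interval of a protein-coding gene in the GENCODE annotation of GRCm38 (mm10), and neither strength nor motif entered the choice. They lay in 837 genes. Intervals given for shares of peaks are exact (Clopper-Pearson) 95% intervals, which cover the counting of peaks and not the variation between animals.

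The tissue was frozen left cerebral cortex of female B6CASTF1/J mice aged 2 months, whose name stands for the first-generation hybrid between the CAST/EiJ and C57BL/6J strains. Chromatin bound by CTCF was precipitated with a CTCF antibody, and 4 libraries were made, 2 technical replicates from each of pool I and pool J, with 4 biosamples in a pool and a size range of 200 to 600 bp. All animals shared this genotype, sex, age and tissue, so there was no second condition, and the deposited lists merge the libraries of a pool, so no value of a single library or animal could be given. Cortex is a mixture of neurons, glia and vessel cells, and peak positions carry no expression marker with which to check the tissue label; a site bound in a few cells and a site bound weakly in many cannot be told apart.

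CTCF is a DNA-binding protein with a row of zinc fingers that read a long, asymmetric motif. Together with the ring complex cohesin it anchors chromatin loops and insulates neighbouring domains, and loops form mostly between motifs that point towards each other. In a coding exon, each base of such a motif also has to serve the protein sequence. In a human lymphoid cell line, CTCF bound in an exon of the CD45 gene has been linked to slower elongation by RNA polymerase and to inclusion of that exon. Methylation of CpG sites inside the motif can lower CTCF binding, and coding sequence holds many CpG sites.

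The following sequences are shown because they are the bound motifs in the strongest coding-exon peak for each combination of motif strand and codon position. Genes known only by a clone symbol (such as Gm or Rik) were passed over in this choice. On the opposite strand, A830031A19Rik (codon position 2) and Gm16253 (codon position 3) had stronger peaks than the genes shown. The motif was learned without coding exons, from 1000 strong peaks in non-coding sequence of the odd-numbered autosomes, and its commonest bases are TGGCCACCAGGGGGCGCTAG over 20 positions. Each line gives 60 bases of the GRCm38 reference (C57BL/6J) 5′ to 3′ along the motif, with the motif match in capitals; the CAST/EiJ allele was not read.
Crh: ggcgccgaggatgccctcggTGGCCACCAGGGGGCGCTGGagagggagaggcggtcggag
Spata31d1d: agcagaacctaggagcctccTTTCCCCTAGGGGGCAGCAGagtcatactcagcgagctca
Ccr10: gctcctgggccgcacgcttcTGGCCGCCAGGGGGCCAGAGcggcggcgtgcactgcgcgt
Hey1: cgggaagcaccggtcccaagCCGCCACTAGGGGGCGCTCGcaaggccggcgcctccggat
Pgls: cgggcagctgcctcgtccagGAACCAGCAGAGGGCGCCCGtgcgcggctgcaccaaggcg
Kif19a: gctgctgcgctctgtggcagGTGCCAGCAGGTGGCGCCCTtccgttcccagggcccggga

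The first 3 motifs lay on the coding strand. They were in Crh, for the stress peptide corticotropin-releasing hormone (chr3:19694039-19694098, minus strand), in Spata31d1d, of a gene family expressed in spermatogenesis (chr13:59728582-59728641, minus strand), and in the chemokine receptor gene Ccr10 (chr11:101173960-101174019, minus strand). The other 3 lay on the strand opposite to the coding strand. They were in Hey1, for a Notch-responsive repressor (chr3:8664669-8664728, plus strand), in Pgls, for a lactonase of the pentose phosphate pathway (chr8:71596092-71596151, minus strand), and in the kinesin gene Kif19a (chr11:114789203-114789262, minus strand). Within the capitals, Crh carried the commonest base at 19 of 20 positions, Spata31d1d at 13, Ccr10 at 16, Hey1 at 16, Pgls at 13 and Kif19a at 13.

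Coding exons were bound more densely than introns or intergenic sequence but less densely than promoters. The eligible coding sequence, coding bases more than 1000 bp from a transcript start, covered 30.1 Mb or 1.17% of the sequenced genome. It held 29.6 peaks per Mb, against 27.1 in 3′ UTRs, 19.1 in introns, 12.4 in intergenic sequence, 77.6 within 1000 bp of a transcript start and 17.5 over the whole genome. In numbers, there were 891 coding-exon peaks beside 837 peaks in 3′ UTRs, 20307 in introns, 16838 in intergenic sequence and 5465 near a transcript start. How well short reads map in each class was not assessed.

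The limit of 1000 bp left out 339 further summits in coding sequence. The closest genes inside the limit were Tmem229a, Hcrt, Etv2, Ccser1 and Asic2, whose summits lay 1002, 1006, 1013, 1024 and 1027 bp from a transcript start and had signal values of 113, 503, 225, 96.5 and 266. The closest outside were Erh, Ascl4, Ly6g6e, Mxra8 and Nab2 at 992, 976, 974, 973 and 965 bp, with signal values of 232, 433, 194, 106 and 116. The signal values outside the limit all lay within the range of those inside it. Hcrt, which encodes the wakefulness peptide orexin, was the strongest of the 10.

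Coding-exon peaks were somewhat weaker than the peaks of the series as a whole. The deposited signal value, whose unit is not given in the sources used here, had a median of 241 at coding-exon peaks (quartiles 138 and 406, range 17.6 to 721), against 246 at intronic, 304 at intergenic, 347 at 3′ UTR and 269 at all peaks. In pool I the median at coding-exon peaks was 171 and in pool J 73.2, against 186 and 83.1 at all peaks. The top decile of all peaks by signal included 65 (7.30%) of the coding-exon peaks, and the bottom decile included 103 (11.6%). An irreproducible discovery rate (IDR) of at most 0.01 was reached by 845 (94.8%) of the coding-exon peaks, beside 95.5% of all peaks. Every coding-exon peak overlapped a peak called in pool I, where 0.0381% of all conservative peaks overlapped none. In pool J, 865 coding-exon peaks (97.1%) overlapped a called peak and 26 overlapped none, as did 3.11% of all conservative peaks.

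Among the strongest 10 with clone symbols passed over, Pgls had signal values of 407 in pool I and 309 in pool J. Its pooled value was 714, in the last of its 5 coding exons. The peaks passed over included A830031A19Rik and Gm16253, with pooled values of 721 and 704. Ccdc61, for a centrosomal protein, had 389 in pool I and 287 in pool J, in coding exon 10 of 13. Crh had 385 in pool I and 291 in pool J, in its single coding exon of 561 bp. Its motif was also the best scoring of all coding-exon peaks, with 27.6 on a log2-odds scale on which 28.1 is the highest possible score.

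Nynrin followed with 381 in pool I and 279 in pool J. Klf1, for a zinc finger activator of erythroid genes, had 393 in pool I and 263 in pool J, and Vps13d, for a lipid transfer protein, had 381 in pool I and 270 in pool J. Neither Klf1 nor Vps13d had a motif match within 50 bp of its summit. The remaining 4 were Kif19a, Rinl, the exchange factor gene Arhgef18 and Def6, with 377 to 388 in pool I and 264 to 277 in pool J; Arhgef18 had no motif match. In each of the 10 the pool I value was above the pool J value, as it was at 889 of the 891 coding-exon peaks, which the plot of the 2 pools shows as a band above the line of equal values.

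**Figure D1:**
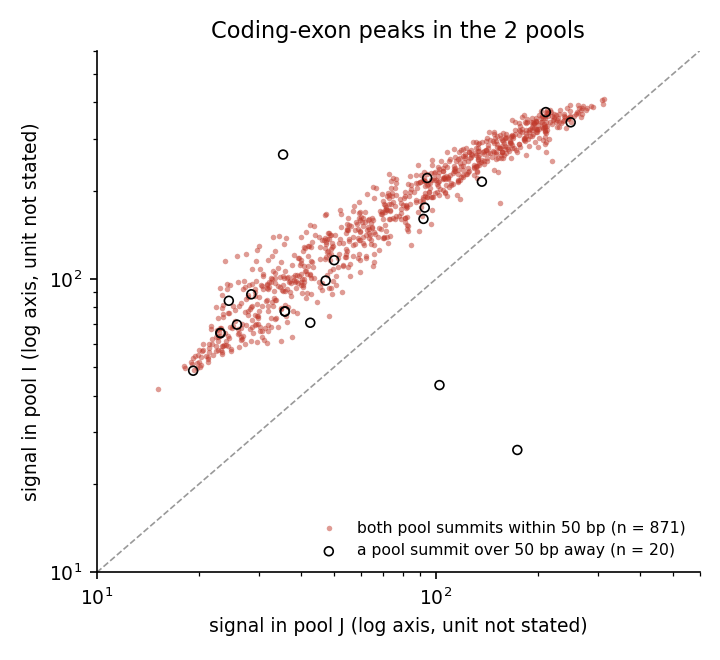
Signal value of each of the 891 coding-exon peaks in pool I (vertical) and pool J (horizontal), both on log axes, with the dashed line at equal values. Open circles are the 20 peaks whose matched summit in a pool lies over 50 bp away, and all 3 peaks far from the band of points are open circles.

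Pool I gave higher values than pool J at nearly all coding-exon peaks, by a factor that was smaller at the strongest ones. On the log2 scale, the pool I over pool J ratio of signal had a median of 1.13 (SD 0.38 over 891 peaks), against 1.09 (SD 0.39) over all peaks. At the 10 strongest named above it ran only from 0.40 at Pgls to 0.58 at Klf1. The calls that follow use 1 median for peaks of every strength. More than 2-fold above the median ratio of all peaks were 5 coding-exon peaks (0.561%), where 0.293% of all peaks were, and more than 2-fold below it were 2 (0.224%), where 0.177% of all peaks were. With 1 value per pool, no spread within a pool could be set against these differences.

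At Cntnap1 and Tacr2, which had extreme ratios, the summit matched in 1 of the pools lay about as far away as a neighbouring summit. At Cntnap1, for a protein of the axon and glia junction, pool I had 266 and pool J had 35.4, but the pool I summit lay 211 bp from the coding-exon summit. At Tacr2, a tachykinin receptor gene, pool I had 43.5 and pool J had 102, with the pool J summit 202 bp away. Over the 871 coding-exon peaks whose matched summits both lay within 50 bp, 4 were more than 2-fold above the median ratio and 0 were below it.

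Those 4 were Kcns1, Zfp385a, Cpne3 and Tspan17, of which the last 2 were named after their values were seen. Kcns1, for a potassium channel subunit, had 115 in pool I and 24.0 in pool J, and Zfp385a had 120 in pool I and 25.9 in pool J. The scaled IDR score of Kcns1 was 574, near the lowest of 540 in the thresholded lists, and its pool J summit lay 40 bp away. The Zfp385a summit lay 206 bp from a stronger conservative summit with a pooled value of 490. The lowest ratio with close summits among the named genes was at the homeobox gene Nkx2-2, with 182 in pool I and 155 in pool J.

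Among the weakest coding-exon peaks by pooled signal were members of close pairs of summits. Ppp1r13l and Cntnap1 had pooled values of 17.6 and 20.7, and their next conservative summits lay 204 and 211 bp away with pooled values of 576 and 450. In all, 22 coding-exon peaks (2.47%) had another conservative summit within 250 bp, all at 199 to 220 bp, and 1.66% of all peaks had one; 199 bp was the smallest spacing in the whole list. Of these 22, 12 were the weaker of their pair. Within 1000 bp, 77 coding-exon peaks (8.64%) had a neighbour, against 7.05% of all peaks.

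Most genes with a coding-exon peak had only 1. Of the 837 genes, 785 had 1 peak and 52 had 2 or more, 2 of them with 3. Pias3, for a SUMO ligase that binds STAT3, had peaks in coding exons 2, 5 and 14 of 14 over 5441 bp. The exon 2 peak had 80.006 in pool I and 28.5 in pool J, the exon 5 peak 231 in pool I and 102 in pool J, and the exon 14 peak 179 in pool I and 70.9 in pool J. The strongest and the middle one had a motif on the strand opposite to the gene, shown here as 2 motifs in 1 gene that differ in bases but share strand.
Pias3 exon 5: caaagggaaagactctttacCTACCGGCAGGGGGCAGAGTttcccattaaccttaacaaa
Pias3 exon 14: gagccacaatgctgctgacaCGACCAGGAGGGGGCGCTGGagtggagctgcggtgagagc
They lie on the minus strand of chromosome 3, at chr3:96700544-96700603 and chr3:96704964-96705023. Their log2-odds scores were 16.9 and 21.5. The exon 5 summit lay 4 bp from a splice junction, and its motif ran out of the coding exon there. Fzd5, a Wnt receptor gene with 1 coding exon of 1755 bp, had 3 peaks and no motif match, with pooled values of 118, 111 and 45.8; its 2 neighbouring summits were matched to the same peak in each pool and so share their pool values.

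Within the coding sequence, peaks were denser in first, last and single coding exons than in internal ones. Internal coding exons held 603 peaks (67.7%, 64.5% to 70.7%) at 26.8 per Mb of eligible sequence, while they made up 75.2% of that sequence. Last coding exons held 184 (20.7%, 18.04% to 23.5%) at 37.7 per Mb, with 16.3% of the sequence. First coding exons held 49 (5.50%, 4.10% to 7.21%) at 39.7 per Mb, and this interval holds their 4.12% of the sequence. Single coding exons held 55 (6.17%, 4.68% to 7.96%) at 41.5 per Mb, with 4.43% of the sequence. A motif match within 50 bp of the summit was present at 65.0% of peaks in internal, 62.5% in last, 49.0% in first and 40% in single coding exons. Peaks in last coding exons were the strongest, with a median signal of 307, against 238 in internal, 211 in first and 155 in single coding exons. With the coding sequence cut into 10 equal stretches, the density was 23.3 per Mb in the first stretch, 27.2 in the fifth and 39.6 in the last.

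**Figure D2:**
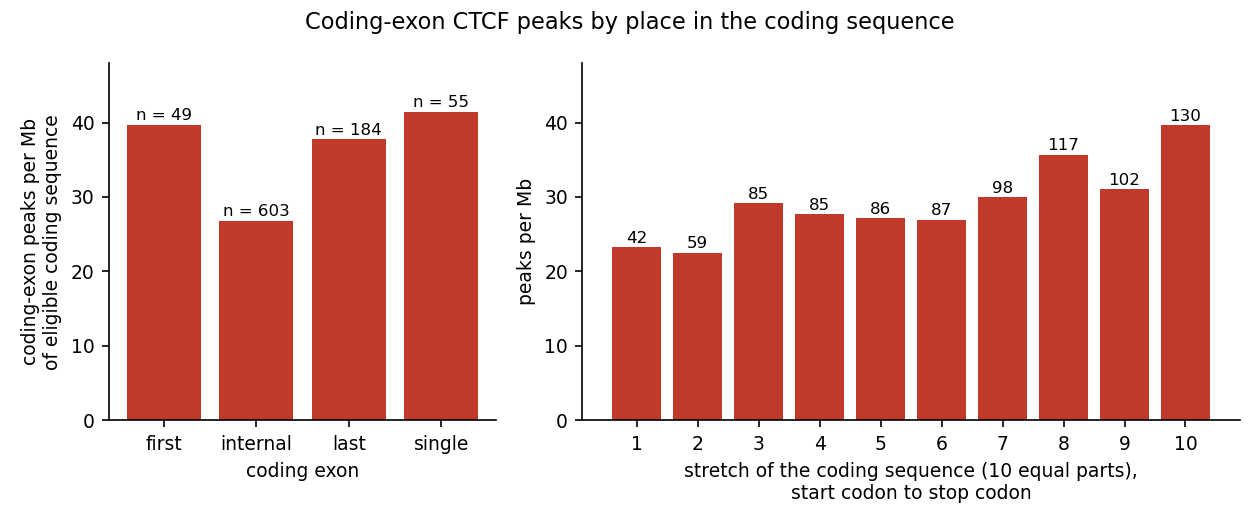
Coding-exon peaks per Mb of eligible coding sequence by class of coding exon (left) and along the coding sequence of the gene's longest coding transcript, cut into 10 equal stretches (right), with the number of peaks above each bar. Density was lowest in internal exons and in the first 2 stretches, and highest in single exons and the last stretch.

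The exons themselves had a median coding length of 196 bp (quartiles 131 and 568), the longest being the 6550 bp exon of Prune2 and the shortest an 8 bp exon of Dmtn. Peak intervals had a median width of 304 bp, and 672 (75.4%) reached beyond the coding exon. Summits lay within 50 bp of a splice junction in 396 of 836 cases (47.4%), against 52.8% of the eligible bases of genes with more than 1 coding exon. In internal exons 316 summits were nearer to the donor end and 287 nearer to the acceptor end. Of 474 summits spanned by more than 1 annotated coding transcript, 63 (13.3%) lay in exons that not all of these transcripts keep. Among the eligible bases likewise spanned by more than 1 coding transcript, placed by the middle of their exon, the share was 8.43%. These bases came from the longest coding transcript of each gene alone. Exons absent from that transcript can hold a summit but did not enter the share of bases, so the 2 shares are not fully alike.

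The CTCF motif was present at most coding-exon peaks, though less often than at intronic ones. A match lying wholly within 50 bp of the summit was found at 553 of 891 coding-exon peaks (62.1%, 58.8% to 65.3%), against 74.0% of intronic, 76.7% of intergenic, 74.2% of 3′ UTR and 46.0% of promoter peaks. Over all conservative peaks outside the 1000 used to learn the motif, the share was 71.4%. In windows 1000 bp to each side of the coding-exon summits it was 0.842%. At the matched peaks the centre of the motif lay a median of 6.5 bp from the summit, and 513 centres (92.8%) were within 20 bp. The motif was wholly inside coding sequence at 491 peaks and ran out of it at 62.

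The share with a motif grew with peak strength. By quartile of all peaks from weakest to strongest, 43.5%, 55.2%, 71.8% and 84.7% of coding-exon peaks had a match, against 61.2%, 68.6%, 80.6% and 89.8% of intronic peaks. The intervals of the 2 classes were apart in the weaker 3 quartiles and overlapped in the strongest. Conversely, coding-exon peaks with a motif had a median signal of 307, against 174 without one; over all peaks these medians were 325 and 174.

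**Figure D3:**
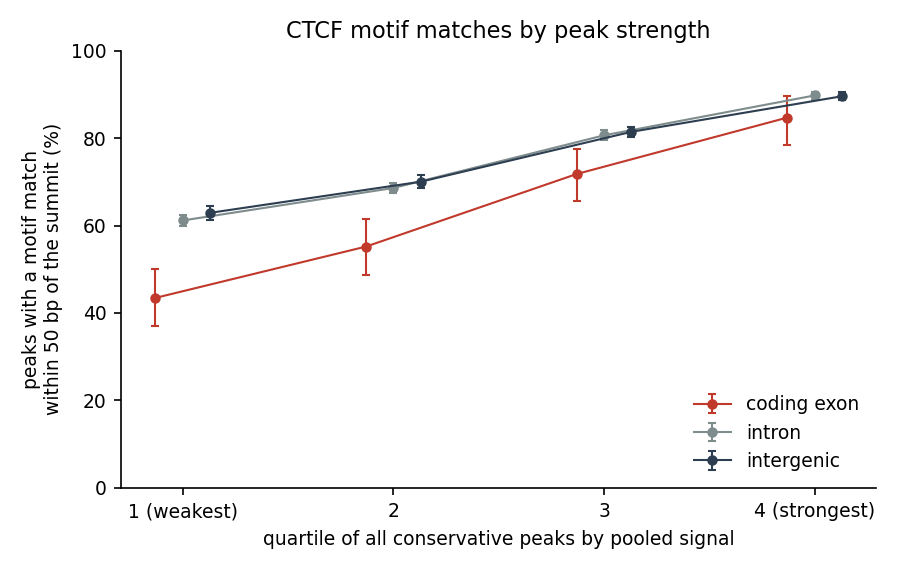
Share of peaks with a motif match within 50 bp of the summit (vertical, percent) in each quartile of all conservative peaks by pooled signal, for coding-exon, intronic and intergenic peaks, with exact 95% intervals as bars. Coding-exon peaks sit at 43.5% in the weakest quartile and 84.7% in the strongest, and intronic peaks at 61.2% and 89.8%.

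Coding-exon peaks sat in sequence richer in GC and CpG than intronic peaks. Within 50 bp of the summit the median GC content was 58.4% (quartiles 53.5% and 64.4%), against 49.5% at intronic, 61.4% at promoter and 50.5% at all peaks. The mean number of CpG sites in that window was 4.54 at coding-exon peaks, against 1.39 at intronic, 6.41 at promoter and 2.19 at all peaks. Coding-exon peaks without a motif had more CpG sites, 5.32, than those with one, 4.07. Around motif matches in coding exons, the median GC content was 58.4% both with and without a conservative summit, so this GC level was not particular to bound sites. The mean number of CpG sites was 4.02 at matches with a summit and 3.06 at those without. The 339 coding summits left out for their closeness to a transcript start had a median GC content of 67.3% and a motif share of 40.4%. Among coding-exon peaks, the 121 at 1001 to 2000 bp from a start had a motif share of 56.2% and a median signal of 229, against 242 for those farther away. Whether GC content bears on signal or recovery was not tested.

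The share of motif matches with a conservative summit was close in coding exons and introns, and in the ranked list it was lower in coding exons. Coding exons held 92.9 motif matches per Mb, against 68.0 in introns, 50.2 in intergenic sequence, 67.8 in 3′ UTRs and 108 near transcript starts. Of the 2794 matches in coding exons, 564 (20.2%, 18.7% to 21.7%) had a conservative summit within 50 bp of the motif centre. In introns this share was 21.2%, in intergenic sequence 19.4%, in 3′ UTRs 30.4% and near transcript starts 34.9%. The share followed the motif score: in 4 bins starting at scores of 11.1, 13.3, 15.4 and 18.6 it was 8.58%, 16.9%, 39.3% and 83.8% in coding exons, against 6.88%, 16.04%, 44.1% and 72.3% in introns. In the ranked list of both pools, which has no IDR limit, 29.7% of coding matches and 41.3% of intronic ones had a summit within 50 bp, with 15.7%, 29.7%, 53.02% and 91.1% in the 4 bins in coding exons against 23.6%, 41.6%, 66.8% and 90.1% in introns. For conservative summits, the coding interval lay above the intronic value in the lowest bin (7.21% to 10.1%) and in the highest (77.6% to 88.9%). In the bins between, it held the intronic value. The motif was learned partly from intronic and intergenic peaks and from no coding-exon peak.

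A CpG at motif positions 15 and 16, counted from the 5′ end of the motif, was commoner at occupied matches. It was present in 266 of the 564 occupied matches in coding exons (47.2%) and in 462 of the 2230 others (20.7%); in introns the shares were 26.5% of occupied and 14.3% of other matches. In coding exons, 36.5% of the matches with this CpG were occupied (33.0% to 40.2%), against 14.4% of those without (12.9% to 16.01%). The score counts this CpG, so matches with it scored higher, with a median of 13.9 against 12.9. Within the 4 score bins, 18.8%, 25.6%, 53.7% and 88.3% of coding matches with the CpG were occupied, against 5.92%, 13.9%, 31.7% and 78.8% of those without it. The intervals did not overlap in the lower 3 bins. In introns the shares were 11.7%, 15.5%, 53.9% and 80.8% with the CpG, against 6.34%, 16.2%, 41.3% and 68.5% without it. The second intronic bin thus did not show the higher share. These groups were defined after the occupancy values had been seen.

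CpG sites within 50 bp, counted together with those inside the motif, showed the same order. In coding exons 17.1% of matches with 0 to 1 CpG within 50 bp were occupied, 18.2% with 2 to 4, 24.0% with 5 to 9 and 47.8% with 10 or more (38.3% to 57.4%, 113 matches). The median scores of these groups ran from 12.98 to 14.1. The occupied share also rose over the same groups outside coding exons. It was 18.5%, 27.7%, 34.0% and 43.4% in introns, and 15.3%, 29.3%, 31.0% and 48.6% in intergenic sequence. Methylation was not measured here.

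**Figure D4:**
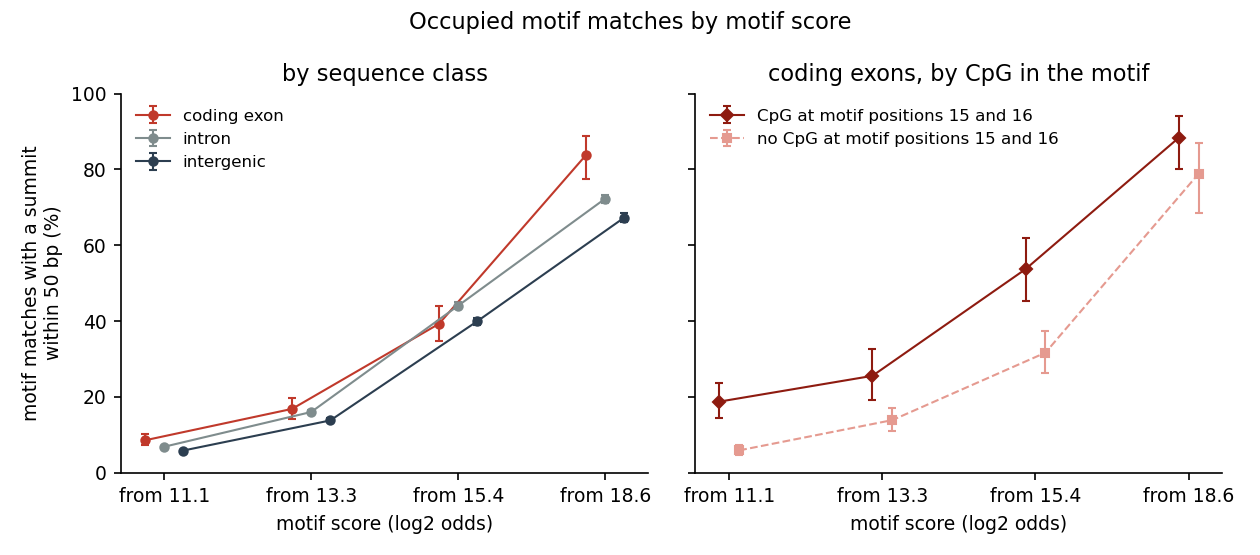
Share of motif matches with a conservative summit within 50 bp (vertical, percent, exact 95% intervals) by motif score, for coding exons, introns and intergenic sequence (left) and for coding-exon matches with and without a CpG at motif positions 15 and 16 (right). Coding exons reach 83.8% in the highest bin, and matches with the CpG lie above those without it in every bin.

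High-scoring motifs without a conservative summit were few in coding exons. Of 179 matches in the highest bin, 29 had none. The 5 best scoring of them that lie wholly in coding sequence of named genes, chosen after their values were seen, are shown in the same way as the bound motifs, because they carry a high-scoring motif and no peak in the conservative list.
Zfp219: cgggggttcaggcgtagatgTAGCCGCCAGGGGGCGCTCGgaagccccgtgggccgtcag
Hoxb3: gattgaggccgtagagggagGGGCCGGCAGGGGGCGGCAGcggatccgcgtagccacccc
Ctbp2: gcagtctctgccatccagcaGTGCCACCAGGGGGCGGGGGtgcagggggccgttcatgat
Necap1: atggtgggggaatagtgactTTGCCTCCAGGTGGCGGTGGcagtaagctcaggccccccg
Hivep3: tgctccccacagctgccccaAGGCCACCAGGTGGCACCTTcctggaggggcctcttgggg
They lie at chr14:52008973-52009032 (plus strand), chr11:96346170-96346229 (minus strand), chr7:132999272-132999331 (plus strand), chr6:122882863-122882922 (minus strand) and chr4:120134070-120134129 (plus strand). In that order they carried the commonest base at 17, 15, 15, 15 and 14 of 20 positions. The Zfp219 site was a strong peak in the ranked list of both pools, with 380 in pool I and 304 in pool J and a pooled value of 684, but its IDR of 0.0743 was above the limit of 0.05. The Hoxb3 site had a weak entry, with 16.2 in pool I, 7.95 in pool J and an IDR of 0.682. At Ctbp2, Necap1 and Hivep3, genes for a transcriptional co-repressor, an endocytosis protein and a large zinc finger protein, the ranked list had no summit within 50 bp.

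Motifs on the strand opposite to the coding strand outnumbered those along it. Of 553 motifs at coding-exon peaks, 311 (56.2%) lay on the opposite strand and 242 (43.8%, 39.6% to 48.01%) on the coding strand. Among all matches in coding exons, 1446 (51.8%) lay on the opposite strand and 1348 (48.2%) on the coding strand. Their occupied shares were 20.7% on the opposite strand (18.6% to 22.9%) and 19.7% on the coding strand (17.6% to 21.9%), and these intervals overlap.

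The motif also fell unevenly on the reading frame. On the coding strand, its first base was at codon position 3 at 123 of 217 peaks (56.7%, 49.8% to 63.4%), at position 1 at 68 (31.3%) and at position 2 at 26 (11.98%). On the opposite strand, the base of the motif that comes first in the direction of the gene was at codon position 3 at 123 of 273 peaks (45.1%, 39.1% to 51.2%), at position 1 at 76 (27.8%) and at position 2 at 74 (27.1%). All motif matches in coding sequence, bound or not, had nearly the same make-up: codon positions 3, 1 and 2 took 52.5%, 32.5% and 15.1% on the coding strand, and 43.4%, 33.2% and 23.4% on the opposite strand. Occupied shares by codon position ran from 15.7% to 20.5% on the coding strand and from 17.4% to 24.1% on the opposite strand, with overlapping intervals on each strand. In the printed motifs, Crh is an example of a start at codon position 3 on the coding strand and Pgls of a start at position 2 on the opposite strand.

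**Figure D5:**
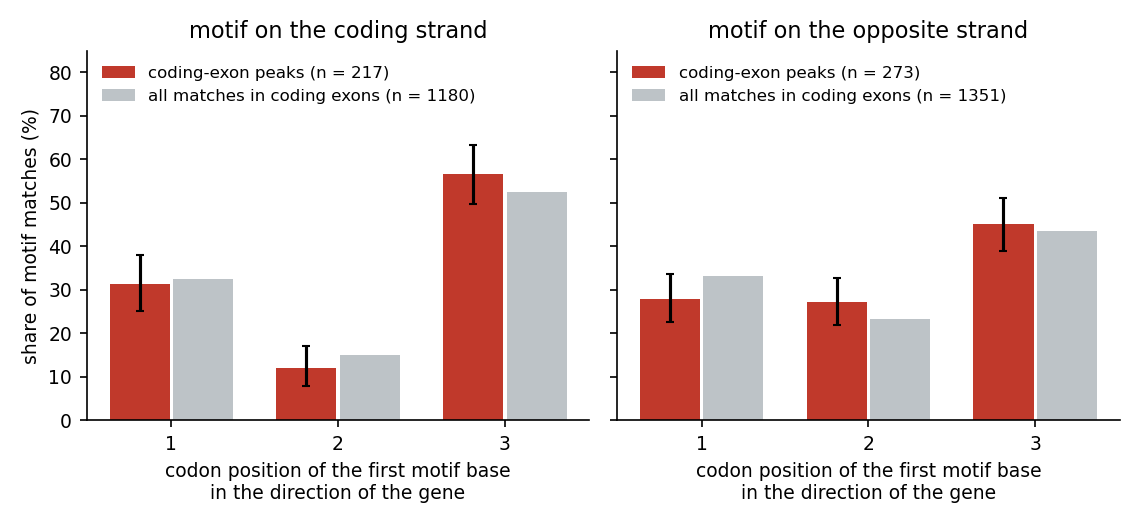
Share of motifs (vertical, percent) by the codon position of the motif base that comes first in the direction of the gene, at coding-exon peaks (exact 95% intervals as bars) and for all motif matches in coding exons, on the coding strand (left) and the opposite strand (right). On the coding strand 56.7% of the motifs at peaks and 52.5% of all matches begin at codon position 3.

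Across gene families defined by symbol, coding-exon peaks were spread thinly, and most counts are small. Over all protein-coding genes with eligible sequence, 837 of 21755 (3.85%) had a coding-exon peak, at 29.8 peaks per Mb. Because the peaks were selected by position in coding sequence, a longer coding sequence offers more room for one. Genes with a coding-exon peak had a longer coding sequence, with a median of 2070 bases against 1179 over all genes, and no comparison at equal length was made. A conservative peak within 1000 bp of one of their transcript starts was present at 235 (28.1%) of them and at 4321 of 20918 other genes (20.7%). Rates of the 27 families are given with exact Poisson 95% intervals, which are not adjusted for that number of families.

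Ion channel and neural receptor families lay on both sides of the rate over all genes. Potassium channel genes had 10 peaks in 10 of 94 genes, at 79.6 per Mb (38.2 to 146), led by Kcnk15 with 339 in pool I and 175 in pool J. Sodium, calcium and HCN channels had 7 peaks in 5 of 44 genes at 44.7 per Mb (17.98 to 92.1), led by the neuronal calcium channel gene Cacna1a. Glutamate and GABA receptors had peaks in 2 of 47 genes at 19.3 per Mb (2.34 to 69.8), the stronger in Gabrp. Synaptic adhesion and scaffold genes had peaks in 4 of 61 genes at 18.7 per Mb (5.09 to 47.9), none with a motif match. The strongest of these was in Ptprs, a receptor phosphatase gene, with 353 in pool I and 191 in pool J. Of these 4 families, the interval lay apart from the rate over all genes for potassium channels alone.

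Signalling and cell-surface families had rates above that over all genes. With each peak counted separately, only the interval of the Wnt, Notch and Hedgehog genes lay above that rate. Wnt, Notch and Hedgehog genes had 10 peaks in 8 of 57 genes at 75.8 per Mb (36.4 to 139), with Notch3 strongest at 327 in pool I and 242 in pool J. Of these 10 peaks, 3 lay in Fzd5, among them neighbouring summits 199 bp apart that were matched to the same peak in each pool. The interval treats them as independent and is therefore too narrow, and whether it would stay above the rate with Fzd5 counted once was not tested. Cadherins other than the clustered protocadherins had 12 peaks in 11 of 61 genes at 51.6 per Mb (26.7 to 90.2), led by Cdh22. Axon guidance genes had 8 peaks in 8 of 71 genes at 40.3 per Mb (17.4 to 79.3), led by Sema4f, whose motif scored 23.2. Adhesion G protein-coupled receptors had peaks in 5 of 27 genes at 49.4 per Mb (16.04 to 115), led by Adgrv1 with 356 in pool I and 240 in pool J, and ADAM and ADAMTS proteases had 9 peaks in 8 of 57 genes at 58.4 per Mb (26.7 to 111), led by Adamtsl4.

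The clustered protocadherins, whose alternative promoters are known CTCF targets in neurons, had a coding-exon peak in 1 of 57 genes (1.75%), at 10.8 per Mb (0.273 to 60.2), an interval that holds the rate over all genes. It lay in Pcdhgc3, 1052 bp from the nearest transcript start, with 95.3 in pool I and 30.5 in pool J and no motif match. The limit of 1000 bp leaves out summits next to the promoters of that cluster's variable exons.

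Families of motor, filament and matrix genes had intervals that hold the rate over all genes. Dyneins and kinesins had 14 peaks in 12 of 61 genes at 39.9 per Mb (21.8 to 67.0), led by Kif19a. Myosin heavy chains had peaks in 3 of 39 genes at 14.7 per Mb (3.04 to 43.03), led by Myo15b, and keratins in 3 of 106 genes at 59.9 per Mb (12.4 to 175), led by Krt88. Collagens had peaks in 2 of 44 genes at 10.3 per Mb (1.24 to 37.1), led by Col16a1, and laminins and other matrix proteins in 4 of 49 genes at 15.1 per Mb (4.12 to 38.7), led by Frem2.

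Among gene-regulatory families, the intervals of the C2H2 zinc finger genes and the chromatin regulators lay below the rate over all genes. Sox, Pax, Pou, Fox and Lhx factors had 8 peaks in 8 of 155 genes at 55.6 per Mb (24.0 to 109), led by Sox8 with 308 in pool I and 192 in pool J. C2H2 zinc finger genes had 12 peaks in 11 of 498 genes at 13.2 per Mb (6.84 to 23.1), and Klf1 was strongest. Hox genes had 1 peak in 39 genes, in Hoxc10, at 74.3 per Mb (1.88 to 414). Chromatin regulators had peaks in 6 of 111 genes at 13.5 per Mb (4.97 to 29.5), led by Kmt2a, a histone H3 lysine methyltransferase gene. Of 22 genes for CTCF, cohesin and their partners, the zinc finger gene Maz had one (4.55%, 16.6 per Mb, 0.42 to 92.4), with 139 in pool I and 56.8 in pool J, and the interval holds the rate over all genes. Activity-regulated genes had peaks in 3 of 23 genes at 119.96 per Mb (24.7 to 351), led by Klf4 with 297 in pool I and 148 in pool J.

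Solute carriers had 11 peaks in 11 of 371 genes at 20.4 per Mb (10.2 to 36.4), led by the transporter gene Slc22a15. There were 0 coding-exon peaks in 1093 olfactory receptor genes (upper limit 39.8 per Mb), in 327 vomeronasal receptor genes (12.4 per Mb), in 50 ABC transporter genes (18.8 per Mb), in 82 cytoplasmic ribosomal protein genes (133 per Mb) and in 67 replication-dependent histone genes. The olfactory, ribosomal and histone genes had only 0.0927, 0.0278 and 0.00113 Mb of coding sequence over 1000 bp from a transcript start, so their limits lie above the rate over all genes. Those of the vomeronasal receptors and ABC transporters lie below it, but in the optimal list the ABC transporters had 3 coding-exon peaks.

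By chromosome, the X chromosome had the lowest density, with 10 coding-exon peaks at 8.86 per Mb of eligible coding sequence. The autosomes ran from 20.5 per Mb on chromosome 2 to 40.9 on chromosome 8, with a median of 29.9. Peaks of any kind on the X chromosome numbered 1224, of which 0.817% were coding-exon peaks.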

How the data were processed

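Chromatin bound by CTCF was measured in 4 libraries of mouse left cerebral cortex, which the authors merged within pool I and pool J. The deposited peak lists hold 1 row per summit with a score, a signal value and, as −log10, the significance columns; per the submitters' labels the assembly is mm10. The score was deposited as the scaled IDR (checked: the relation held for 100% of ranked peaks), and the lowest score in the thresholded lists was 540. The deposited signal values come without a stated unit, and the lists the authors deposited carry no read counts, so read depth is unknown. Which aligner, peak caller and control were used, and in which versions, is not given in the sources used here.

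Summits were placed on GENCODE M21 (basic set) and on the RefSeq GRCm38.p6 sequence, which matched the lists' chromosomes, with coding sequence ranked above UTRs and introns. Each conservative peak was found in the ranked list of both pools, which gave its value in each pool; that value belongs to the pool peak matched to the interval. A 20-position motif was learned from 1000 non-coding peaks, and the score threshold was the one passed by 1% of flanking windows. The finder and the placement were tested on simulated data. Exon class comes from the transcript with the longest coding sequence. The codon position of a motif at a peak was kept only where all coding transcripts wholly holding the motif gave the same one.

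No hypothesis test was run: there was 1 condition, and the libraries were merged. Values are counts, medians and exact intervals (SciPy 1.17.1, pandas 2.3.3, Python 3.11.15). Named genes are the 10 strongest and 3 weakest, those with 3 peaks, the strongest of each family, those nearest the 1000 bp limit, the extremes of the pool ratio, the strongest of each motif strand and codon position, the 3 strongest without a motif, the extremes of exon length and the best motif. Unnamed clone symbols were passed over. A gene that the rule names is not reported here. The members, families and lists were chosen with earlier results of these data known. Other distances, IDR limits, motif thresholds, windows and lists were tried.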

Additional observations from a re-analysis of the deposited data

How the results depend on the processing

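The number of coding-exon peaks stayed between 770 and 1013 under other transcript start limits, an IDR of at most 0.01, the middle of the interval, the optimal list and the pool J list, and was 1570 in the list of pool I alone. Placing by the middle of the interval kept 848 of the 891. Their share of all peaks was 2.27% with a limit of 500 bp and 1.72% with 2000 bp. The motif share was 12.2% with a threshold passed by 0.1% of flanking windows, 44.2% where the whole motif had to lie within 20 bp of the summit, 66.0% with the threshold from the flanks of coding-exon peaks, 46.2% in the pool I list and 56.2% in the pool J list. The occupied share of matches was 18.4% within 20 bp and 88.4% with the stricter threshold. The median log2 ratio was 1.06 in the ranked list and, chosen after seeing the data, 1.14 over peaks with both pool summits within 50 bp. Overlap with the pool I list was 94.7% by reciprocal overlap of 50% and 98.99% by summits within 50 bp, and with the pool J list 78.7% and 95.3%. With 150 bp to each side, the median GC content was 56.5% and the mean CpG number per 100 bp was 3.83, against 4.50 in the narrower window. In the optimal list, 1 gene had 3 or more peaks. Family counts moved in that list to 4 for glutamate and GABA receptors (from 2), 2 for Hox genes (1), 6 for keratins (3), 5 for myosins (3), 3 for ABC transporters (0) and 1 for ribosomal proteins (0). The cause of these shifts was not tested; 37 other values outside the families stayed within their intervals or within 1.5 times. No paired analysis was possible because the 2 technical replicates of a pool were merged before deposit and no test was run; for the same reason no single library could be left out. Depth is unknown, and 2 pools limit all statements on reproducibility.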
